A study of Homo sapiens with 48 samples.

Results

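The 10 genes described here encode subunits of the human oligosaccharyltransferase: STT3A, STT3B, RPN1, RPN2, DDOST, DAD1, OSTC, OST4, MAGT1 and TUSC3. They were chosen by name as rows of a count table of 58302 genes, and MAGT1 was singled out because earlier results of these data showed that it fell most of them after knockdown of IRE1. The cells were AMO1, an established line of human multiple myeloma, the plasma cell cancer. Each line was 1 clone that carried 3 short hairpin RNAs (shRNAs) switched on by doxycycline (Dox), labelled IRE1 sh7,8,9 (clones 1 and 3, here shIRE1) or XBP1 sh4,6,7 (clones 1 and 18, here shXBP1). Each clone was sampled without Dox (0 h) and after 24, 48 and 72 h in 0.2 µg/ml Dox, with 3 biological replicates a time, so that 16 groups and 48 mRNA libraries resulted. No library with a non-targeting shRNA was analysed here. Within a clone, loss of the targeted gene therefore cannot be told apart from what Dox, or the making of hairpins, does by itself. The shIRE1 and shXBP1 clones had the same dose of Dox and both made hairpins. Clones of the same shRNA label carried the same hairpins. Effects of these hairpins on other genes cannot be told apart from loss of the targeted gene. The 3 comparisons of a clone share its 0 h libraries.

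Oligosaccharyltransferase sits in the membrane of the endoplasmic reticulum (ER) and moves a preassembled sugar chain from the lipid dolichol to asparagines of nascent proteins, which is how immunoglobulins and most other secreted proteins become N-glycosylated. Each complex holds a catalytic subunit. STT3A works beside the translocon with OSTC, and STT3B works with MAGT1 or its relative TUSC3, whose thioredoxin-like folds help it reach sites that STT3A skipped. RPN1 and RPN2 (ribophorins), DDOST, DAD1 and OST4 are common to both complexes. IRE1, encoded by ERN1, is an ER stress sensor that splices XBP1 mRNA, and the product XBP1s is a transcription factor that enlarges the ER of plasma cells.

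Total counts ran from 19177855 to 40767202 per library. All 9 plasma cell markers were detected, with summed levels of 7490 to 21000 CPM (the count of a gene divided by the TMM-scaled size of its library). PAX5 and CD22 of B cells, CD3D of T cells and CD14 of monocytes stayed under 1 CPM in every library. The summed plasma cell markers, XBP1 among them, were lower after Dox in each clone, at 14200 to 15900 CPM at 0 h and 8990 to 11500 after Dox in shIRE1 clone 1, for example. Of the 4 T cell markers, CD3E was detected at a mean of 11.1 CPM, and their sum went from between 5.85 and 7.3 CPM at 0 h to between 15.4 and 18.9 after Dox in shIRE1 clone 1 and from between 9.06 and 10.0 to between 15 and 16.6 in shIRE1 clone 3, with CD3D near 0. The part of these shifts in the results was not tested. The library labelled shXBP1 clone 18, 72 h, replicate 3 stood apart from its clone, since its log2 CPM correlated across genes at 0.978 with its own clone and at 0.997 with shXBP1 clone 1. The library labelled shIRE1 clone 3, 24 h, replicate 1 lay nearer to shIRE1 clone 1 (0.997) than to its own clone (0.992). The members' log2 fold changes in the comparisons that these 2 libraries enter, shXBP1 clone 18 at 72 h and shIRE1 clone 3 at 24 h, are given with and without them. In shXBP1 clone 1, 0 h replicate 1 correlated at 0.983 with its clone, below replicates 2 and 3 (0.996 and 0.994). It enters every comparison of that clone. At 24 h, replicates 1 and 2 of that clone were at 0.987 and 0.985. All of these lay nearer to their own clone than to another.

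Promoter sequences were available for 7 of the 10 genes in RefSeq (GRCh38.p14, 250 bases before to 50 after the start). They are shown for MAGT1, because it had the lowest values after shIRE1, for OSTC, because it fell most in the shXBP1 clones, and for STT3A, the catalytic subunit that works with OSTC. Capitals mark CCAAT and CCACG on either strand, the outer parts of the ER stress response element (ERSE) to which XBP1s can bind. MAGT1 is read from chrX:77895386-77895685, minus strand, OSTC from chr4:108650349-108650648, plus strand, and STT3A from chr11:125592602-125592901, plus strand. Another MAGT1 start, with the window chrX:77895519-77895818, is not shown and held 3 CCAAT and 0 CCACG matches.
MAGT1: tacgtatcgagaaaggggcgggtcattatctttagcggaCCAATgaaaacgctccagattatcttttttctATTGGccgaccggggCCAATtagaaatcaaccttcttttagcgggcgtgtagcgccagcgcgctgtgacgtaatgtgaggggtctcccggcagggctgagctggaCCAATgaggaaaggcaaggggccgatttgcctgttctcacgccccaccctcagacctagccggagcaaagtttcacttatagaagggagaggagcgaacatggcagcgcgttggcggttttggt
OSTC: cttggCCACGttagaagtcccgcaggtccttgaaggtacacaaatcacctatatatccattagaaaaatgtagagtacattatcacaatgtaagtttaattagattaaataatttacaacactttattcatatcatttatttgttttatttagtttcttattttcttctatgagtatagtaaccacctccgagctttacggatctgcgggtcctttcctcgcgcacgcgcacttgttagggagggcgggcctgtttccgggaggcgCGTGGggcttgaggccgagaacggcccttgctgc
STT3A: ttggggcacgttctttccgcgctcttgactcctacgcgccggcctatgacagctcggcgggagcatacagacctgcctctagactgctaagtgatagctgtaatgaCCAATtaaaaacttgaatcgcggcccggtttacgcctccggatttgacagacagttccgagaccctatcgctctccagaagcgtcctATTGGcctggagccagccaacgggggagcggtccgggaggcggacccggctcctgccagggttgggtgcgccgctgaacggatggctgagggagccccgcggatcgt
The MAGT1 window held 4 CCAAT matches and 0 CCACG matches, that of OSTC 0 and 2, and that of STT3A 2 and 0. CCAAT stood in 34.6% of 34796 promoter windows of this length and CCACG in 38.0%. The full ERSE (CCAAT, any 9 bases, CCACG, in 0.0776% of windows), ERSE-II (ATTGG, any 1 base, CCACG, in 0.0546%) and the core GACGTGG of the unfolded protein response element (3.14%) were searched on both strands and matched none of the 7 genes. The shorter ACGTG, which lies inside that core, occurred in 21.4% of windows, among them those of OSTC, STT3A, DDOST and DAD1. Of the 7 genes, only DDOST had both CCAAT (2 matches) and CCACG (1 match).

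At 0 h, the subunit mRNAs formed the same order at its top and bottom in all 4 clones when counted per kilobase of the canonical transcript. RPN2 stood highest at 441 to 655 CPM per kilobase (range of the clone means), followed by RPN1 (276 to 345), DDOST (209 to 274) and OST4 (167 to 247). STT3B (136 to 216), DAD1 (140 to 177) and STT3A (121 to 146) came next, and their order changed between clones. OSTC (64.9 to 86.9) and MAGT1 (29.9 to 40.2) were lower, and TUSC3 was near 0 (0.00684 to 0.130). In shIRE1 clone 3, the libraries of OST4, STT3B, DAD1 and STT3A overlapped from each to the next in that order, whereas in shXBP1 clone 18 no neighbours overlapped. The plot of CPM by library shows these levels on the scale of CPM, which is not per length.

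**Figure D1:**
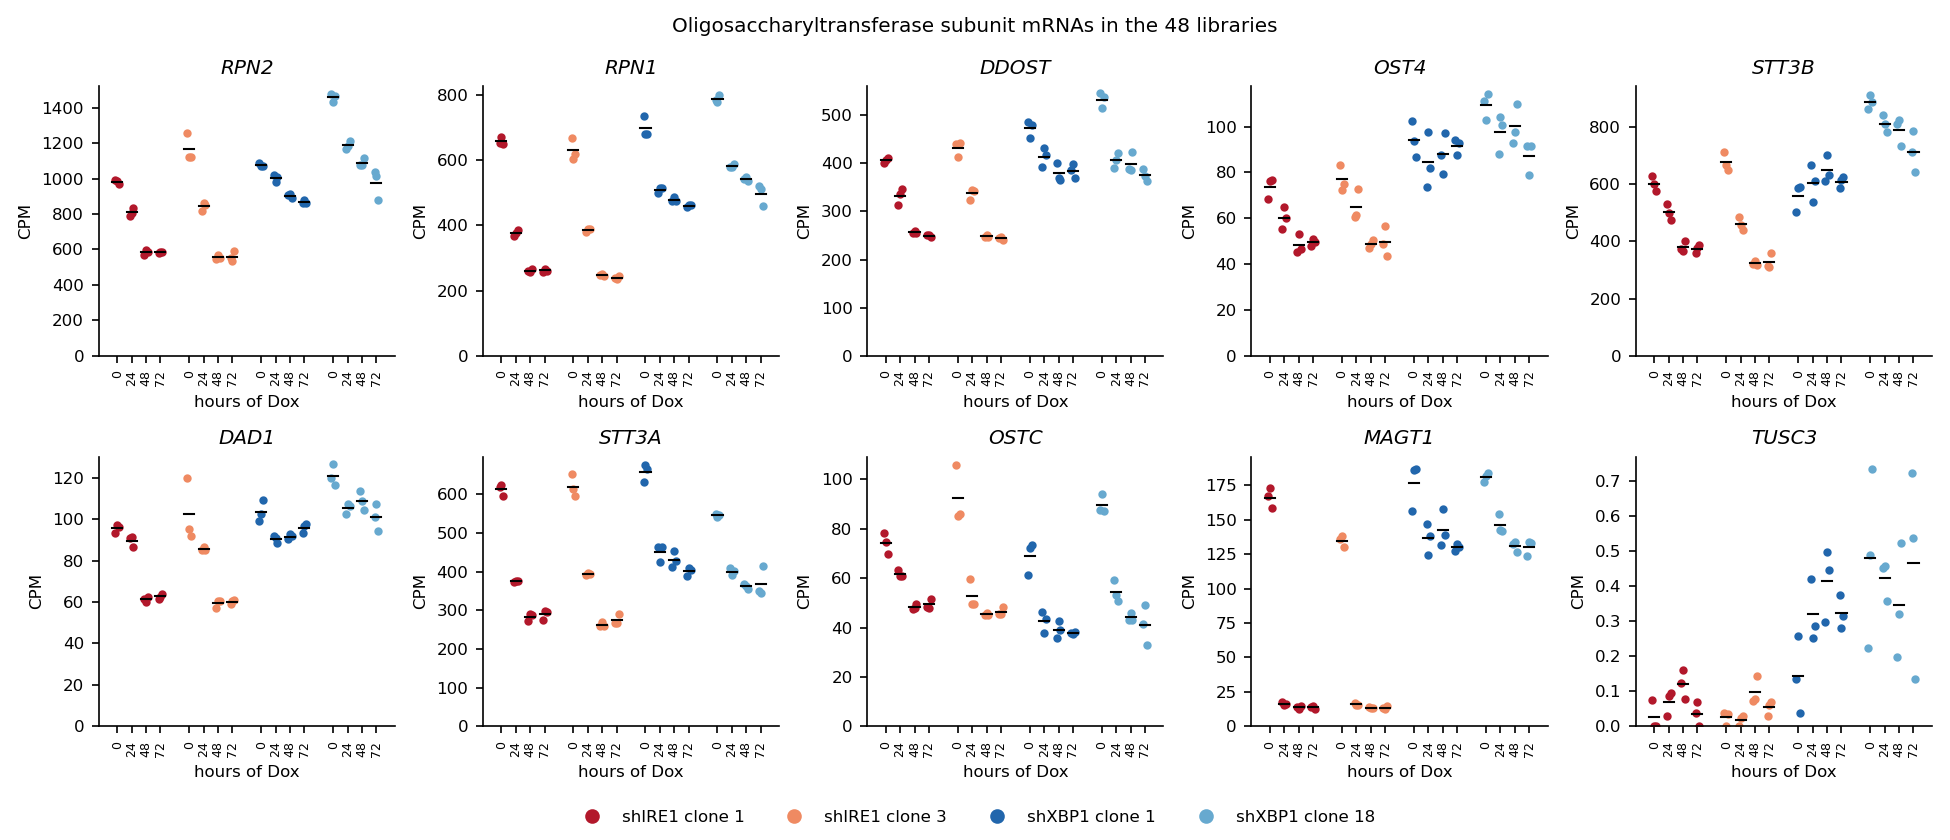
CPM of each subunit mRNA (vertical axis, linear, from 0) against hours of Dox (horizontal axis) in the 4 clones, with 1 point per library and a bar at the mean of 3. MAGT1 in the shIRE1 clones drops from 130.1 to 173 CPM at 0 h to at most 17.7 CPM in every library after Dox, and none of the other subunits except TUSC3, which is near 0 throughout, comes as close to 0 relative to its 0 h level in those clones.

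MAGT1 was nearly lost in both shIRE1 clones within 24 h, and was only mildly lower in both shXBP1 clones. In shIRE1 clone 1 the 3 libraries had 167, 173 and 158.5 CPM at 0 h, 17.7, 15.8 and 15.99 at 24 h, 14.25, 12.55 and 14.8 at 48 h, and 13.9, 14.9 and 12.85 at 72 h. In shIRE1 clone 3 they had 136, 138 and 130.1 CPM at 0 h, 16.8, 15.5 and 15.33 at 24 h, 13.9, 13.1 and 13.1 at 48 h, and 13.2, 12.6 and 14.98 at 72 h. Every library after Dox lay far below every 0 h library, and most of the drop was present at the first time sampled. The log2 fold changes were -3.34, -3.59 and -3.58 at 24, 48 and 72 h in clone 1 (SE 0.07 each) and -3.09, -3.35 and -3.32 in clone 3 (SE 0.07 each), and without the library that stood apart the 24 h value of clone 3 was -3.13. These values chose the gene and are given with no test.

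MAGT1 ranked 2nd from the lowest log2 fold change at 24 h among 17154 genes in shIRE1 clone 1 and among 17204 in clone 3. The lowest genes, named after their values were seen, were DHRS2 in clone 1 (-4.30) and PXDN in clone 3 (-3.25). At 48 and 72 h MAGT1 ranked 5 and 8 in clone 1, and 31 and 28 in clone 3. It dropped further than the targeted gene. ERN1 went from 152 ± 2.37 CPM at 0 h to 127 ± 1.62 at 24 h and 102 ± 1.70 at 72 h in clone 1 (SD, n = 3). In clone 3 it went from 438 ± 15.4 to 145 ± 1.32 and 125 ± 2.92 at these times.

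In the shXBP1 clones, MAGT1 was tested. Clone 1 had 157, 186 and 187 CPM at 0 h, 147, 125 and 138.5 at 24 h, 131, 158 and 139 at 48 h, and 127.5, 132 and 130.4 at 72 h. Clone 18 had 177, 182 and 184 CPM at 0 h, 154, 142.5 and 142 at 24 h, 132.5, 134 and 127 at 48 h, and 124, 134 and 133 at 72 h. The Dox libraries lay below those of 0 h at all times, except that 48 h overlapped 0 h in clone 1. The log2 fold changes of clone 1 were -0.39, -0.33 and -0.46 (SE 0.08 each), with edgeR adjusted p = 0.00534, 0.0125 and 0.00165. Those of clone 18 were -0.31, -0.46 and -0.47 (SE 0.05 each), with adjusted p = 0.0102, 0.000262 and 0.000162. Without the library that stood apart, clone 18 gave -0.31, -0.46 and -0.49 (adjusted p = 0.00187, 2.79e-05 and 6.43e-05). The 24 h call of clone 18 was lost without any of the 0 h libraries or without 24 h replicate 2 or 3 (adjusted p = 0.0598 to 0.0917). The change of MAGT1 in the shIRE1 clones was lower than in the shXBP1 clones by a log2 difference of -2.87 at 24 h, -3.08 at 48 h and -2.99 at 72 h (SE 0.07 each), a description for the same reason as above. XBP1 itself, in shXBP1 clone 1, went from 167 ± 7.65 to 34.0 ± 0.758 CPM between 0 and 72 h, and in shXBP1 clone 18 from 170.2 ± 6.67 to 37.9 ± 5.37 (SD, n = 3). ERN1 also shifted, and in opposite directions. Over the same time it went from 188 ± 4.46 to 314 ± 3.07 CPM in shXBP1 clone 1 and from 414 ± 3.96 to 338 ± 29.6 in clone 18. The part of this shift in the results was not tested.

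**Figure D2:**
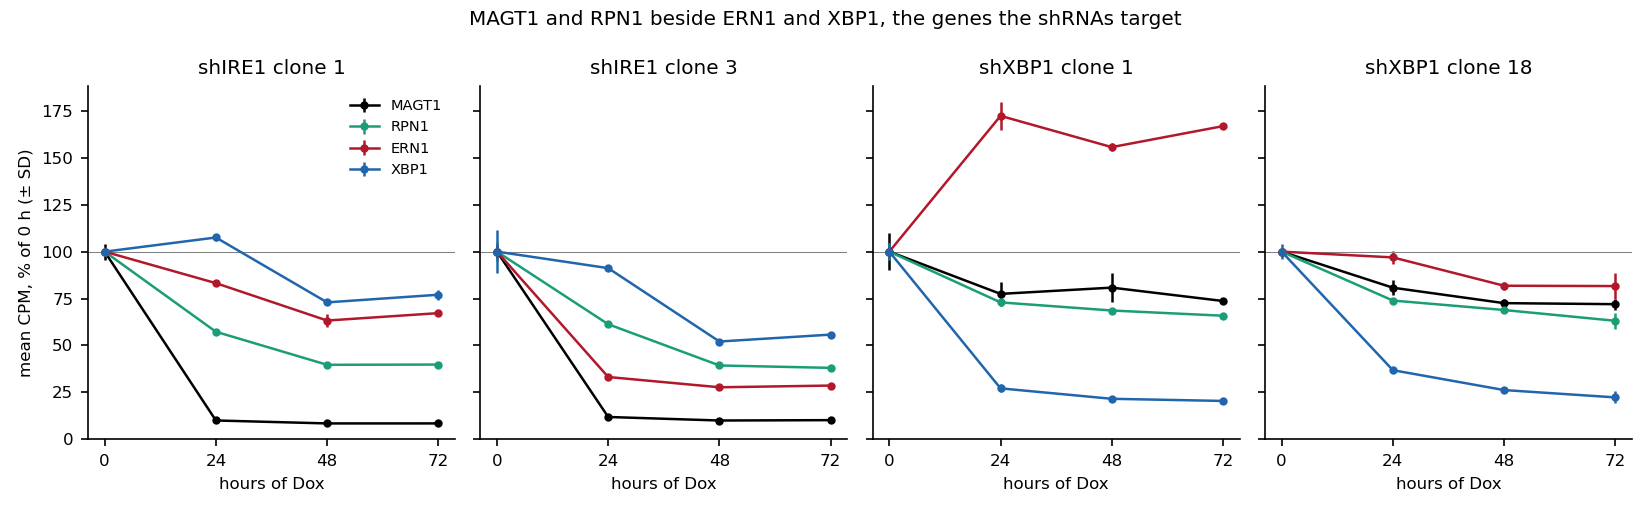
Mean CPM as a percentage of the 0 h mean (vertical axis, from 0, with bars of 1 SD over 3 libraries) against hours of Dox in each clone, for MAGT1, RPN1, ERN1 and XBP1. MAGT1 is the lowest line in both shIRE1 clones, below ERN1, and in both shXBP1 clones it runs beside RPN1 and above XBP1.

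The MAGT1 gene (ENSG00000102158) lies on chromosome X from 77825747 to 77899271 on the minus strand (GRCh38, GENCODE 44). COX7B, a subunit of cytochrome c oxidase, starts on the plus strand, 169 bases from the MAGT1 start in this annotation, at 77899271. The MAGT1 promoter window printed above (chrX:77895386-77895685) belongs to a different start, from RefSeq, and is not the stretch beside COX7B. COX7B had log2 fold changes of -0.15, -0.32 and -0.34 in shIRE1 clone 1 and -0.05, -0.31 and -0.19 in clone 3. It fell in shXBP1 clone 1 (-0.32, -0.26 and -0.26, edgeR adjusted p = 0.00236, 0.00693 and 0.00709) and did not pass the test in clone 18 (0.19, 0.21 and 0.06, adjusted p = 0.274, 0.136 and 0.659). The other expressed neighbours within 200 kb were ATP7A, PGK1 and ATRX, whose shIRE1 values at 72 h were 0.28, -0.51 and 0.33 in clone 1 and 0.32, -0.54 and 0.36 in clone 3. None of these came near the change of MAGT1. C4orf46P2, a pseudogene, had a mean of 0.279 CPM, and PGAM4 and FABP5P15 had 0.00354 and 0.000818. RNU6-854P and RN7SL460P overlap MAGT1, and their mean levels were 0 and 0.000808 CPM.

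The catalytic subunits parted most clearly in shXBP1 clone 1, where STT3A was lower and STT3B was not. In the other clones both were lower, although STT3B in shXBP1 clone 18 was called at 72 h only. No test compared these genes with each other. In shXBP1 clone 1, STT3A had 632, 676.5 and 666 CPM at 0 h and 389, 410.4 and 405 at 72 h, with log2 fold changes of -0.57, -0.63 and -0.74 at the 3 times (SE 0.05 each, edgeR adjusted p = 1.61e-05, 6.7e-06 and 1.77e-06). In shXBP1 clone 18 it had 550.0, 542 and 547 CPM at 0 h and 349, 345 and 413 at 72 h, with -0.45, -0.59 and -0.56 (SE 0.07 each, adjusted p = 0.00255, 0.000141 and 0.000162). The value of 413 belonged to the library that stood apart, and without it the 72 h change was -0.65 (adjusted p = 3.19e-07). No 72 h library of either clone reached a 0 h library. In the shIRE1 clones STT3A was at -0.71, -1.11 and -1.09 in clone 1 and -0.66, -1.25 and -1.19 in clone 3 (-0.65 at 24 h without the doubted library).

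STT3B had 501, 587 and 589 CPM at 0 h in shXBP1 clone 1, 667, 536 and 609 at 24 h, 609, 701 and 633 at 48 h, and 585.0, 614.5 and 626 at 72 h. The 48 h libraries alone lay above those of 0 h, and no time passed the test, with log2 fold changes of 0.09, 0.19 and 0.10 (SE 0.08 each, edgeR adjusted p = 0.474, 0.0939 and 0.384). The 48 h value did pass with no filter (adjusted p = 0.0403), in the fit of all 48 libraries (0.0183) and without 24 h replicate 2 (0.0357). In shXBP1 clone 18 it had 861, 912 and 887 CPM at 0 h and 711, 786 and 643 at 72 h, the lowest again from the library that stood apart. There the changes were -0.13, -0.17 and -0.31 (SE 0.07 each, adjusted p = 0.478, 0.195 and 0.0194), of which that at 72 h passed, as it did without the doubted library (-0.24, adjusted p = 0.0314). The 72 h call was lost without any of the 3 libraries at 0 h (adjusted p = 0.0742 to 0.0982). In the shIRE1 clones STT3B was lower throughout, at -0.27, -0.66 and -0.69 in clone 1 and -0.56, -1.07 and -1.06 in clone 3 (-0.60 at 24 h without the doubted library).

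The log2 ratio of STT3B to STT3A counts per kilobase within a library was higher at 72 h than at 0 h in all 4 clones. It went from 0.10 to 0.51 in shIRE1 clone 1, from 0.26 to 0.39 in shIRE1 clone 3, from -0.11 to 0.73 in shXBP1 clone 1, and from 0.83 to 1.08 in shXBP1 clone 18 (means of 3 libraries). The 72 h libraries of clone 18 ran from 0.77, in the library that stood apart, to 1.32, and overlapped those of 0 h (0.78 to 0.88). Without that library the change of clone 18 was 0.41 in place of 0.25, and without 72 h replicate 2 it was 0.13. In the other clones the 72 h and 0 h libraries did not overlap. The log2 ratio of MAGT1 to STT3B, its partner, went from -1.99 to -4.89 in shIRE1 clone 1 and from -2.46 to -4.73 in clone 3, and from -1.80 to -2.36 in shXBP1 clone 1 and from -2.43 to -2.58 in clone 18. There the 72 h library that stood apart was at -2.41 and overlapped those of 0 h (-2.46 to -2.41), and the others, at -2.65 and -2.69, did not. These ratios are descriptions with no test.

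**Figure D3:**
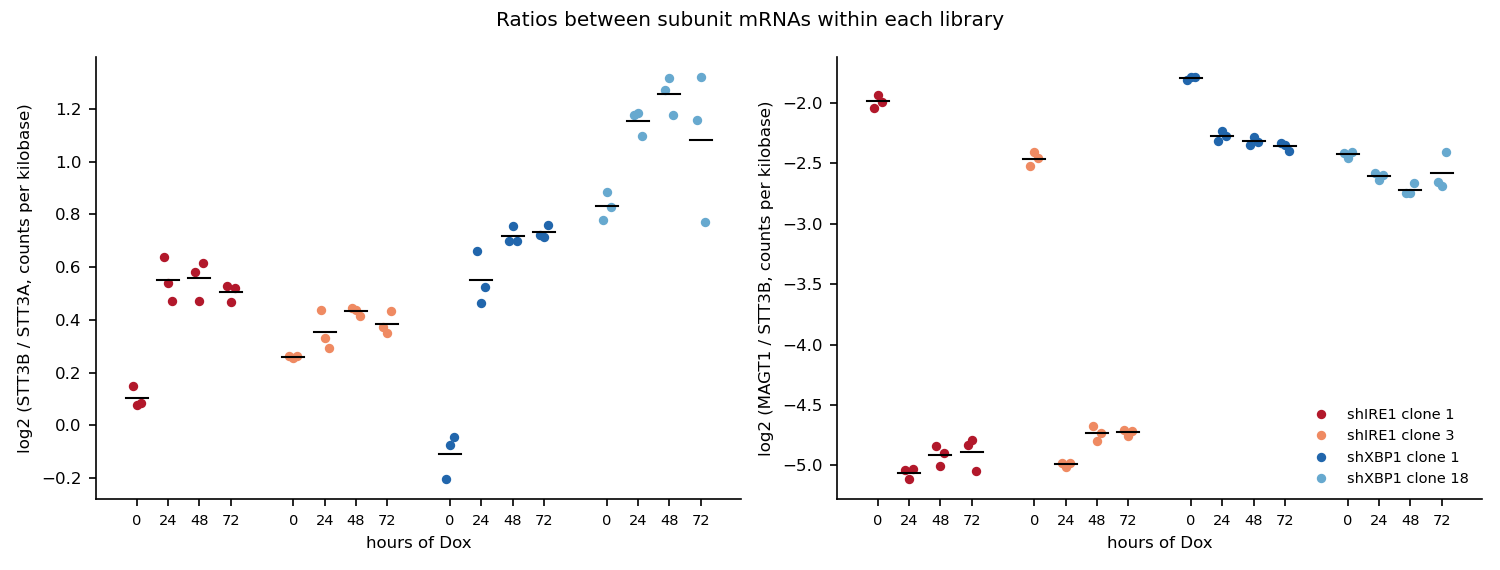
Log2 ratio of STT3B to STT3A (left vertical axis) and of MAGT1 to STT3B (right vertical axis), both of counts per kilobase, against hours of Dox, with 1 point per library and a bar at the mean of 3. The mean at 72 h is above that at 0 h in every clone of the left panel, from -0.11 to 0.73 in shXBP1 clone 1, and the right panel shows the shIRE1 libraries after Dox between -4.67 and -5.11 and the shXBP1 libraries between -1.79 and -2.75.

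OSTC, which ties STT3A to the translocon, was the member that fell most after shXBP1. It had 61.15, 72.25 and 73.4 CPM at 0 h in clone 1, and 46.1, 38.0 and 43.3 at 24 h, 35.9, 42.5 and 38.9 at 48 h, and 37.6, 37.5 and 38.1 at 72 h. In clone 18 it had 87.7, 94.1 and 87.3 CPM at 0 h, and 59.3, 53.05 and 50.9 at 24 h, 43.1, 46.0 and 43.15 at 48 h, and 41.5, 49.0 and 32.8 at 72 h. No library after Dox overlapped those of 0 h in either clone. OSTC changed by a log2 fold of -0.73, -0.84 and -0.89 in clone 1 (SE 0.09 each, edgeR adjusted p = 0.000188, 6.73e-05 and 3.5e-05) and -0.72, -1.03 and -1.12 in clone 18 (SE 0.11 each, adjusted p = 0.00396, 0.000141 and 4.08e-05). Without the library that stood apart, the 72 h change of clone 18 was -0.98 (adjusted p = 3.16e-06). OSTC was at -0.27, -0.62 and -0.59 in shIRE1 clone 1 and at -0.81, -1.03 and -1.001 in shIRE1 clone 3 (-0.91 at 24 h without the doubted library). Processed copies of OSTC are annotated, of which OSTCP6 had 87 to 228 counts a library, and a share of reads moved between them is uncertain.

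Of the shared subunits, RPN1, RPN2 and DDOST fell at every time in both shXBP1 clones. RPN1, a ribophorin that presents substrates to the catalytic subunit, had log2 fold changes of -0.48, -0.56 and -0.62 in clone 1 and -0.44, -0.54 and -0.66 in clone 18 (the edgeR adjusted p-values ran from 1.24e-06 to 0.000498). RPN2, the other ribophorin, had -0.12, -0.27 and -0.33 in clone 1 (adjusted p = 0.0205, 0.00022 and 4.4e-05) and -0.30, -0.42 and -0.57 in clone 18 (adjusted p = 0.0219, 0.00111 and 5.56e-05). DDOST, which holds the complex together, had -0.22, -0.34 and -0.32 in clone 1 (adjusted p = 0.0146, 0.00112 and 0.00137) and -0.39, -0.42 and -0.50 in clone 18 (adjusted p = 0.00188, 0.000599 and 7.65e-05). All libraries of these genes after Dox lay below those of 0 h. Without the library that stood apart, the 72 h changes of clone 18 were -0.60 for RPN1, -0.50 for RPN2 and -0.48 for DDOST (adjusted p = 4.37e-07, 3.41e-06 and 5.23e-05). In clone 1, the 24 h call of RPN2 was lost without 0 h replicate 1 or 2 or 24 h replicate 2 or 3 (adjusted p = 0.0511 to 0.0734), and that of DDOST without 0 h replicate 1 or 24 h replicate 1 (0.0578 and 0.065). In clone 18, the 24 h call of RPN2 was lost without any of the libraries compared (adjusted p = 0.0723 to 0.144).

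DAD1, named as a defender against apoptotic cell death, and OST4, the smallest subunit, moved less. DAD1 had -0.22, -0.19 and -0.13 in shXBP1 clone 1 (edgeR adjusted p = 0.00769, 0.0132 and 0.0601) and -0.20, -0.15 and -0.26 in shXBP1 clone 18 (adjusted p = 0.149, 0.176 and 0.0211). OST4 had -0.18, -0.11 and -0.06 in clone 1 (adjusted p = 0.231, 0.455 and 0.681) and -0.16, -0.13 and -0.32 in clone 18 (adjusted p = 0.435, 0.437 and 0.0323). Without the library that stood apart, DAD1 in clone 18 was at -0.20 and -0.21 at 24 and 72 h and passed at both (adjusted p = 0.0448 and 0.0411), and OST4 was at -0.35 at 72 h (0.0251). DAD1 at 24 h also passed with the 6 libraries compared (0.0428) and with all 48 (0.0401). Only the 72 h libraries of clone 18 had OST4 below every 0 h library. The 72 h calls of clone 18 were lost for DAD1 without any of the 0 h libraries (adjusted p = 0.0659 to 0.117), and for OST4 without any of these or without 48 h replicate 2 or 72 h replicate 2 (0.0506 to 0.121).

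TUSC3, which can take the place of MAGT1 beside STT3B, was almost absent. It had 0 to 6 counts a library in the shIRE1 clones, too few to be tested there, and 1 to 22 in the shXBP1 clones. In shIRE1 clone 1 it had 2, 0 and 0 counts at 0 h, and 1, 3 and 3 at 24 h, 4, 6 and 2 at 48 h, and 1, 2 and 0 at 72 h. In shXBP1 clone 1 it had 4, 9 and 1 counts at 0 h and 9, 14 and 12 at 48 h, where the log2 fold change was 1.40 (SE 0.46, edgeR adjusted p = 0.0346). This call was lost with DESeq2 (adjusted p = 0.0539) and without 0 h replicate 1 or 3 or 48 h replicate 2 or 3 (0.0817 to 0.114). In shXBP1 clone 18 its 72 h change of -0.16 turned to 0.32 without the library that stood apart, and neither passed the test (adjusted p = 0.874 and 0.686).

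Counted over the members, all 9 that passed the filter on low counts had a log2 fold change below 0 in the shIRE1 clones at each time, which is a description with no test. Their median log2 fold changes were -0.29, -0.66 and -0.71 in clone 1 and -0.56, -1.07 and -1.06 in clone 3 (-0.60 at 24 h without the doubted library), where those of all genes lay from 0.02 to 0.04. In shXBP1 clone 1, 7, 7 and 6 of 10 were called lower at 24, 48 and 72 h, where 12.8%, 15.5% and 16.8% of all genes were, and TUSC3 was called higher at 48 h, where 16.6% were. With only the 6 libraries compared in the fit, 4 were called in clone 1 at 24 h, and RPN2, DDOST and DAD1 were lost (adjusted p = 0.176, 0.0682 and 0.0759). In shXBP1 clone 18, 6, 6 and 9 were called lower, where 1.3%, 3.5% and 5.55% were, and without the library that stood apart these were 7, 6 and 9 and 3.33%, 7.16% and 4.48%. The 72 h count was 6 with the 6 libraries compared, and also without any of the 0 h libraries, and the 24 h count was 4 or 5 without any of the libraries compared at that time. In both shXBP1 clones and at every time, STT3A, RPN1, RPN2, DDOST, OSTC and MAGT1 were called lower.

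**Figure D4:**
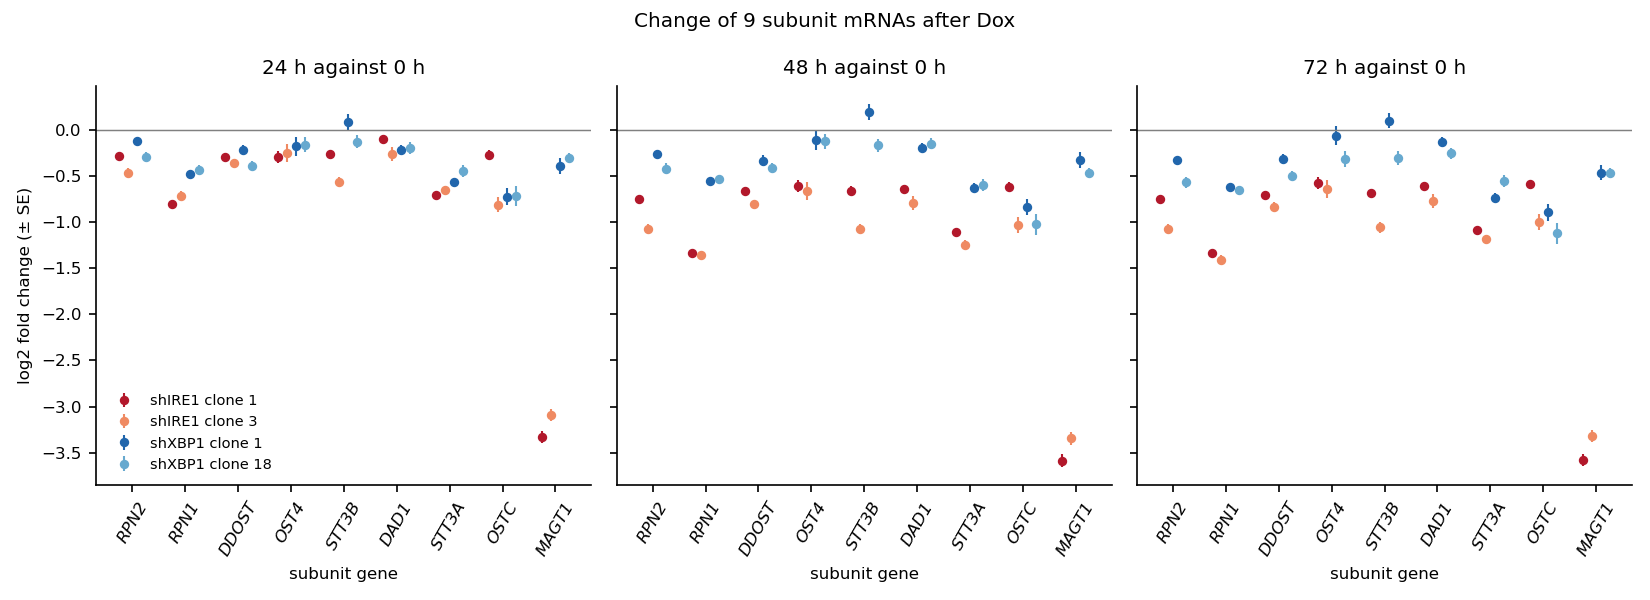
Log2 fold change against 0 h (vertical axis, with bars of 1 SE from the edgeR fit) of 9 subunit genes (horizontal axis) at 24, 48 and 72 h in the 4 clones. MAGT1 lies between -3.09 and -3.59 in the shIRE1 clones and apart from all other points, and STT3B is the gene whose shXBP1 clone 1 points lie above 0.

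Within shIRE1, RPN1 and STT3A had the lowest values after MAGT1 at 48 and 72 h in both clones, and at 24 h in clone 1, whereas OSTC did at 24 h in clone 3. RPN1 had mean levels of 659, 377, 261 and 262 CPM at 0, 24, 48 and 72 h in shIRE1 clone 1 and 629.9, 386, 247 and 239 in shIRE1 clone 3, and it reached, at 72 h, -1.33 and -1.41. RPN2, DDOST and DAD1 reached -0.76, -0.71 and -0.61 at 72 h in clone 1 and -1.08, -0.84 and -0.78 in clone 3, and OST4 reached -0.58 and -0.64. Libraries after Dox lay below those of 0 h for all 9 genes, except for OST4 at 24 h in clone 3. The share of all genes without such overlap was not counted, so nothing is read from this. At 72 h, 31.1% and 30.5% of all genes were called lower in clones 1 and 3. In shIRE1 clone 1, MAGT1 had -3.34 at 24 h beside -3.58 at 72 h, whereas RPN1 had -0.81 beside -1.33 and DAD1 had -0.10 beside -0.61.

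The shXBP1 clones already differed at 0 h in 8 of the 10 members, where 51.3% of 18445 genes differed. STT3B was lower in clone 1 than in clone 18 by a log2 difference of -0.67 and RPN2 by -0.44, and STT3A was higher by 0.27 (edgeR adjusted p = 5.12e-10, 1.46e-10 and 2.56e-05). MAGT1 (-0.04, adjusted p = 0.7) and OST4 (-0.21, adjusted p = 0.0611) did not pass. The calls at 0 h of DDOST and TUSC3 were lost without clone 1 replicate 2 and clone 18 replicate 3 (adjusted p = 0.079 and 0.0728). Of the responses to Dox, 2, 3 and 3 of the 10 members differed between the clones at 24, 48 and 72 h. This is near the share of all genes, of which 17.1%, 24.1% and 24.6% differed. The members were RPN2 and DDOST, then STT3B, RPN2 and TUSC3, then STT3B, RPN2 and DDOST. Of these calls, those of STT3B and that of RPN2 at 72 h passed whichever single library was left out, and the others did not. STT3B went further up, or less far down, in clone 1 than in clone 18 by 0.38 at 48 h and 0.44 at 72 h (adjusted p = 0.0049 and 0.0014), and without the library that stood apart by 0.36 and 0.33. The difference of RPN2 at 72 h was 0.27 with that library and 0.17 without it (adjusted p = 0.00152 and 0.0222). For MAGT1 the difference did not pass the test (-0.06, 0.16 and 0.03, SE 0.10 each, adjusted p = 0.732, 0.251 and 0.843).

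The wider pathway was described through lists chosen with earlier results known. TMEM258, a small subunit of the complex, fell in both shXBP1 clones at 72 h (-0.24 and -0.54, edgeR adjusted p = 0.0144 and 0.000412), as did MLEC, malectin, an ER lectin that binds the glucosylated sugar chain (-0.45 and -0.39, adjusted p = 3.76e-05 and 0.000232). In the shIRE1 clones at 72 h they were at -0.43 and -0.88 for TMEM258 and -0.72 and -0.52 for MLEC. KRTCAP2, a subunit of the STT3A complex, stayed near or under 1 CPM and was called in neither shXBP1 clone (-0.58 and 0.36, edgeR adjusted p = 0.208 and 0.48). In shIRE1 clones 1 and 3 at 72 h it was at -0.49 and -2.18 (SE 0.27 and 0.44). The value of clone 3 rests on means of 1.15 CPM at 0 h and 0.25 at 72 h.

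Of 24 genes that build the dolichol-linked sugar chain, 19 and 17 were called lower and 1 and 0 higher at 72 h in shIRE1 clones 1 and 3, with medians of -0.52 and -0.49 (of all genes, 31.1% and 30.5% were called lower and 32.5% and 29.7% higher). The largest were ALG9, a mannosyltransferase (-1.22 and -1.78), ALG5, which makes dolichol phosphate glucose (-1.37 and -1.45), and ALG10, a glucosyltransferase (-1.32 and -1.37). In the shXBP1 clones 11 and 7 were lower at 72 h and 0 higher, with medians of -0.27 and -0.22, where 16.8% and 5.55% of all genes were lower. At 24 h 7 and 1 were lower (4 in clone 18 without the library that stood apart), where 12.8% and 1.3% of all genes were. ALG1 and ALG2, mannosyltransferases of the early steps, fell in both (-0.92 and -0.54 for ALG1, edgeR adjusted p = 0.000443 and 0.00697, and -0.49 and -0.80 for ALG2, adjusted p = 0.000221 and 7.2e-06). DPM3, which anchors dolichol phosphate mannose synthase, was called in neither (-0.63 and -0.69, adjusted p = 0.153 and 0.122). ALG1, ALG2 and DPM3 were named for the largest mean changes of the list, in absolute size, at 72 h in the shXBP1 clones. Their p-values come from that same comparison and give no separate support.

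MAGT1 has also been described as a magnesium transporter, so 13 other genes of magnesium transport were taken, of which 12 were tested. At 72 h, 6 and 5 were lower and 6 and 5 higher in shIRE1 clones 1 and 3, with medians of -0.08 and -0.10, where 31.1% and 30.5% of all genes were lower and 32.5% and 29.7% higher. The largest changes were of MMGT1 (-0.80 and -0.90), NIPA1 (-0.72 and -0.83) and MRS2, the mitochondrial magnesium channel (-0.78 and -0.64), all a good deal smaller than those of MAGT1. In the shXBP1 clones 1 and 0 were lower and 3 and 2 higher, where 16.8% and 5.55% of all genes were lower and 16.8% and 4.41% higher (1 was higher in clone 18 without the library that stood apart). There NIPA1 rose in both (0.26 and 0.28, edgeR adjusted p = 0.0357 and 0.0202), and TRPM7, a channel kinase, rose in clone 1 (0.42, adjusted p = 0.00898) and not in clone 18 (0.19, adjusted p = 0.203). TRPM6, its relative, was at 0.00 and 0.46 (adjusted p = 0.999 and 0.0588). Without the library that stood apart, clone 18 gave 0.074 for TRPM7 and 0.29 for TRPM6 (adjusted p = 0.602 and 0.182). NIPA1, TRPM7 and TRPM6 were likewise named for the size of these 72 h changes, so their p-values give no separate support.

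Genes with a pattern like that of MAGT1 were sought over the 16 group means of log2 CPM, with each clone's own mean subtracted, among 9500 genes. The closest were EIF1AX, a translation initiation factor (r = 0.994), ARPP19, an inhibitor of a mitotic phosphatase (r = 0.993), PIP4K2C, a lipid kinase (r = 0.993), COPS3, a subunit of the COP9 signalosome (r = 0.992), and MAPK8, the kinase JNK1 (r = 0.992). They share libraries, and r is a description. Their changes were smaller than those of MAGT1, since EIF1AX, with the largest, had -1.37 and -1.33 at 24 h in shIRE1 clones 1 and 3 and -0.23 and -0.14 in shXBP1 clones 1 and 18. Of the other members the nearest was RPN1, at rank 979 (r = 0.888), followed by STT3A at 1160 (r = 0.87), and OSTC came last of those ranked, at 2537 (r = 0.679).

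**Figure D5:**
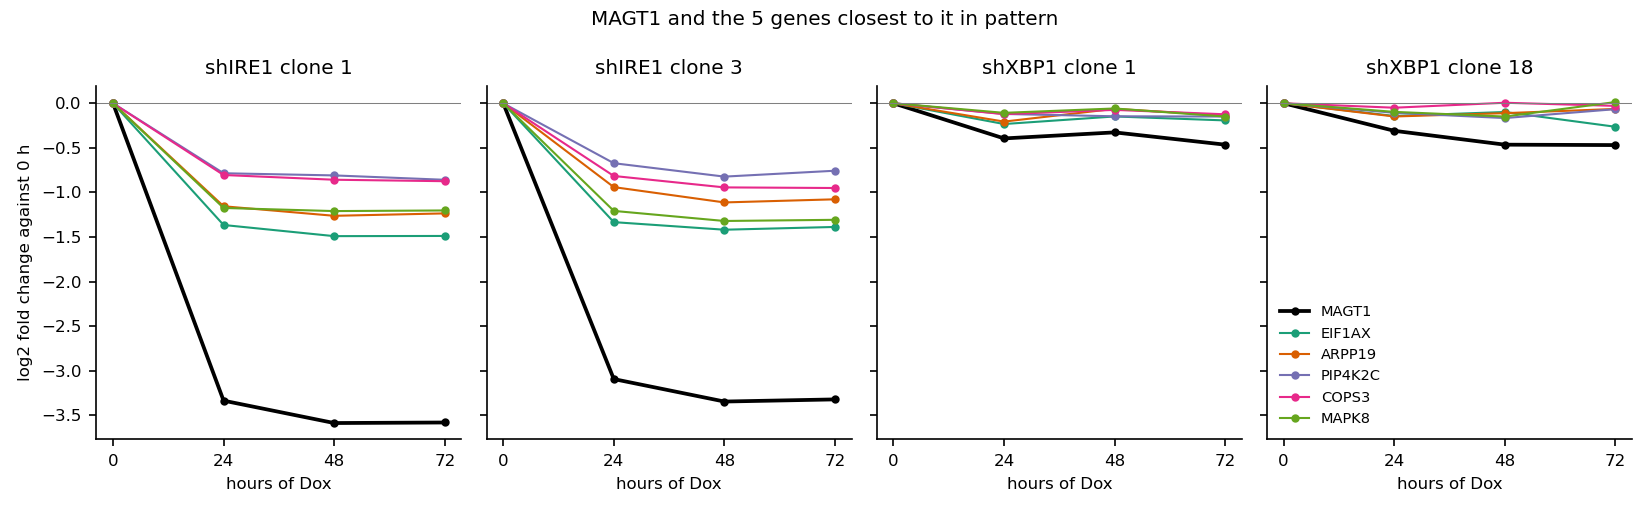
Log2 fold change against 0 h (vertical axis) by hours of Dox in each clone, for MAGT1 (thick line) and the 5 genes with the most similar pattern over the 16 groups. All 6 lines drop by 24 h in the shIRE1 clones and stay flat after, and MAGT1 lies at -3.09 and below, where the next, EIF1AX, lies between -1.33 and -1.49.

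By the annotation, STT3A overlaps FEZ1 and CHEK1, RPN2 overlaps MROH8, DDOST overlaps PINK1-AS and OST4 overlaps AGBL5, and the sources used here do not say whether counting was by strand, so that a share of reads from these neighbours is uncertain. STT3B and DAD1 overlap no annotated gene.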

How the data were processed

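Messenger RNA of AMO1 clones was sequenced as single ends of 50 bases from stranded mRNA libraries. The authors deposited raw counts per gene and a table of log2 CPM with TMM scaling, which matches edgeR log2 CPM (prior count 2) to within 5e-14. The study refers the alignment and counting of these libraries to earlier work, and the submitters' processing notes name GSNAP, edgeR 3.32.1, limma 3.46.0, R 4.1.3, GRCh37 and hg19 without roles. Coordinates and transcript lengths come from GENCODE 44 (GRCh38), and promoters from RefSeq.

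Each clone had its own fit of 12 libraries in edgeR 4.0.16 (TMM, filterByExpr with minimum count 10 and total 15, quasi-likelihood F test, R 4.3.3), in which every time was set against 0 h. A gene was called at a Benjamini-Hochberg adjusted p under 0.05, computed over the whole table of tested genes. A fit of all 48 libraries (18445 genes) tested whether the shXBP1 clones differed. No shIRE1 p-value is given for a member, because shIRE1 values chose MAGT1. The members and lists were chosen with earlier results of these data known. Groups came from the labels, in which titles write the hours as days. The p-values rest on replicates of single clones.

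Named were all members, ERN1, XBP1, 3 subunits and partners, up to 3 genes with the largest mean change at 72 h from each other list and shRNA, genes that start within 200 kb of MAGT1, and the 5 genes most like it with a mean log2 CPM above 3. Alternatives were RLE factors, no filter, all 48 libraries, the 6 libraries compared or the 24 of shXBP1, limma 3.58.1 on the deposited log2 values, DESeq2 1.42.0, a replicate block and leaving out each library. The fits were also run on simulated counts. These had the same relative spread for all genes and few changed genes, unlike the real data, so that run does not show how the fits perform here.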

Additional observations from a re-analysis of the deposited data

Results flagged for a closer look

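The responses of 4 members differed between the shXBP1 clones by a test of the difference itself (edgeR, 48 libraries, clone 1 minus clone 18). They numbered 2, 3 and 3 of 10 at 24, 48 and 72 h, where 17.1%, 24.1% and 24.6% of all genes differed. These counts are near the shares of all genes, so differing between the clones is no trait of the members as a set. At 24 h these were RPN2 (0.20, adjusted p = 0.0297) and DDOST (0.195, adjusted p = 0.0309). At 48 h they were STT3B (0.38, adjusted p = 0.0049), RPN2 (0.17, adjusted p = 0.0463) and TUSC3 (1.91, adjusted p = 0.0388). At 72 h they were STT3B (0.44, adjusted p = 0.0014), RPN2 (0.27, adjusted p = 0.00152) and DDOST (0.21, adjusted p = 0.0158). Leaving out 1 library at a time, the differences of STT3B at 48 and 72 h and of RPN2 at 72 h passed in every case. RPN2 at 24 h was lost in 11 of 13 cases, DDOST at 24 h in 9 of 13, RPN2 at 48 h in 12 of 13, TUSC3 at 48 h in 8 of 13, and DDOST at 72 h in 5 of 12. Among the last was the library that stood apart, without which DDOST gave 0.15 (adjusted p = 0.112).

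For STT3B, every library at 48 and 72 h lay below the 0 h mean in the shIRE1 clones and above it in shXBP1 clone 1, where the change itself passed the test at neither time. The 0 h libraries of shXBP1 clone 1 were at 501, 587 and 589 CPM. Its lowest 72 h library, at 585.0, lay below the 2nd and 3rd of these. The log2 change of shIRE1 clone 1 minus that of shXBP1 clone 1 was -0.85 at 48 h and -0.78 at 72 h, and that of shIRE1 clone 3 minus shXBP1 clone 1 was -1.27 and -1.16. This difference was not tested.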

How the results depend on the processing

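For the members in the shXBP1 clones, 399 of 417 values under alternatives other than leaving out a library kept their direction and their side of the threshold. In the shIRE1 clones, where no call is given, all 378 values kept their direction. Each moved by less than the SD of a difference between single libraries at 0 h and after Dox. That limit is wider than the SD of the replicates in either group. In shXBP1 clone 1 at 24 h, 4 members were called with the 6 libraries compared, against 7. Members that differed between the shXBP1 clones at 24 h fell from 2 to 0 with no filter, with the 24 shXBP1 libraries and with a replicate block, and at 48 h from 3 to 1 with the 24 shXBP1 libraries and with the block. The cause was not tested. Leaving out 1 library gave 0 to 2 such members at 24 h, 1 to 3 at 48 h and 2 to 5 at 72 h (5 without shXBP1 clone 18, 72 h, replicate 2). It turned the uncalled changes of OST4 in shXBP1 clone 1 at 72 h (-0.12 to 0.0084) and of TUSC3 in shXBP1 clone 18 at 24 h (-0.51 to 0.14) and 72 h (-0.67 to 0.32).

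With OSTC in place of STT3A, the change of the ratio at 72 h was -0.0926 and -0.0655 in shIRE1 clones 1 and 3, and 0.99 and 0.83 in shXBP1 clones 1 and 18. With MAGT1 in place of STT3B it was -2.50 and -2.14 in the shIRE1 clones and 0.28 in shXBP1 clone 1. These are other pairs of genes.

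Replicate numbers gave no clear sign of pairing. Correlations of deviations between libraries of the same number ran from -0.904 to 0.803 in shXBP1 clone 1 and were over 0.1 in 9 of 18 pairs. Those between different numbers ran from -0.871 to 0.902 there. In the other clones 5 or 6 of 18 pairs of the same number were over 0.1. Deviations from a mean of 3 libraries depend on each other, so this cannot exclude pairing. Beside the clone differences, the block ended the calls of RPN2 at 24 h (adjusted p = 0.0551) and TUSC3 at 48 h (0.0574) in shXBP1 clone 1. Depth limits TUSC3 and KRTCAP2, which have few counts.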
